A study of Mus musculus with 3 samples.

Results

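The red blood cell lineage genes were followed in whole mouse liver as 8 members: Hba-a1, Hbb-b1, Alas2, Slc4a1, Epb42, Ahsp, Klf1 and Tfrc. The members were taken by gene, from the RefSeq accession of each probe, and not by their values. Of the 8 members, 6 had a probe by this match, against 20284 named genes with a probe on the array. No probe was matched to Hbb-b1 or Ahsp, and both were not analysed here under those names. Gene names supplied with the probes were not used in this match. Older annotation may have given the name Hbb-b1 to one of the adult beta globin probes described below, which was not settled here. Epb42 had 1 probe, which was not well above background on any array. The other 5 members, Hba-a1, Alas2, Slc4a1, Klf1 and Tfrc, were measured on all 3 arrays, among 13626 genes so measured.

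Each of the 3 arrays held Cy3-labelled RNA from liver of mice labelled c57BL6/J, taken 2 days after hydrodynamic gene delivery. The groups were livers expressing human YAP (hYAP) as the wild type (WT), as the mutant 1SA or as the mutant 2SA. YAP is the coactivator that the Hippo pathway holds back, and in the mutants serines that receive this inhibition are replaced by alanine. Per the study's methods, the vector drives YAP in hepatocytes from an AFP enhancer and an albumin promoter. A forceful tail vein injection reaches a part of the hepatocytes, so every liver is a mosaic that keeps its own mouse YAP. The vector, the injection and the day are shared by all 3 livers. An uninjected liver was not analysed here. The labels used here state neither age nor sex nor whether RNA was pooled. With 1 array per group no test between groups was possible, and an effect of the constructs cannot be told apart from a difference between the liver samples.

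Red cells carry haemoglobin, which is built from alpha globin and beta globin chains and haem. Circulating red cells have no nucleus, and the youngest of them, the reticulocytes, still hold globin mRNA and some mRNA of haem synthesis and of the red cell membrane. Erythroblasts are the nucleated precursors. They switch on the erythroid programme through factors such as GATA1 and KLF1 and take up iron through the transferrin receptor. The adult mouse liver makes few red cells, unlike the fetal liver, but it is rich in blood and stores iron. In bulk RNA of this kind, fewer cells of a type and less RNA per cell cannot be told apart.

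Intensities were set on a log2 scale against the 75th percentile of the same array, which was 290.8 for the WT array, 275.7 for the 1SA array and 319.5 for the 2SA array. A level is such a normalised log2 value or the intensity behind it, and a difference is the normalised level on one array minus that on another. The error given is that of repeated spots. Over the 282 measured probes of 399 printed 10 times, the typical SD of a difference between arrays was 0.10 for 1 spot. For each member it was taken from the 50 repeated probes of most similar signal. It was then divided by the square root of the number of printed spots of the member's probe. This error leaves out the spread between animals. The RNA carried liver markers, since all 12 hepatocyte markers listed were well above background on all 3 arrays.

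Globin transcripts were higher in both mutant livers than in WT, and the erythroblast genes did not share this order. Hba-a1 was 1.87-fold higher in 1SA and 1.36-fold higher in 2SA. Alas2 and Slc4a1 were higher by smaller amounts in 1SA and close to WT in 2SA. Klf1 and Tfrc ranked the 3 livers in other ways, Klf1 being highest in 2SA and Tfrc lowest there.

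Hba-a1 encodes the adult alpha globin chain, and its intensity was 9684 in the WT liver, 17160 in the 1SA liver and 14516 in the 2SA liver. The 1SA liver was highest and the WT liver lowest. Relative to WT its level was 0.90 higher for 1SA and 0.45 higher for 2SA, with an SD of 0.07 from repeated spots, and the step from 1SA to 2SA was -0.45. Each of these is beyond 2 SD of the spots. Among all 13626 genes, 132 had a larger difference in 1SA and 815 in 2SA.

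Alas2 encodes the erythroid form of the first enzyme of haem synthesis. Its intensity was 6204 in the WT liver, 7924 in the 1SA liver and 7242 in the 2SA liver, the same order as that of Hba-a1. Relative to WT the level was 0.43 higher for 1SA and 0.09 higher for 2SA, with a spot SD of 0.07. The 2SA value thus lay within 2 SD of WT, whereas the step from 1SA to 2SA (-0.34) was beyond them. Under other ways of processing the 2SA difference reached 0.17, just beyond 2 SD (0.14).

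Slc4a1 encodes band 3, the anion exchanger of the red cell membrane. Its probe was dim and read 40.4 in the WT liver, 49.98 in the 1SA liver and 46.9 in the 2SA liver. The order was again WT, 2SA, 1SA, with 0.38 between 1SA and WT and 0.08 between 2SA and WT. With a spot SD of 0.21 no array lay beyond 2 SD of another. With scaling to the array median the 1SA difference was 0.418, just beyond 2 SD (0.415). Epb42, or protein 4.2, is a partner of band 3, and its intensities of 3.18, 2.64 and 2.65 for WT, 1SA and 2SA were not well above background.

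The median difference of the 3 measured mature red cell transcripts was 0.43 for 1SA and 0.09 for 2SA, against -0.002 and -0.03 over all genes. The 3 genes differed in size. The 1SA difference of Hba-a1 exceeded that of Alas2 by 0.47 and the 2SA difference by 0.36, with a spot SD of 0.10. Alas2 and Slc4a1 could not be separated, with gaps of 0.05 and 0.01 and a spot SD of 0.22.

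**Figure D1:**
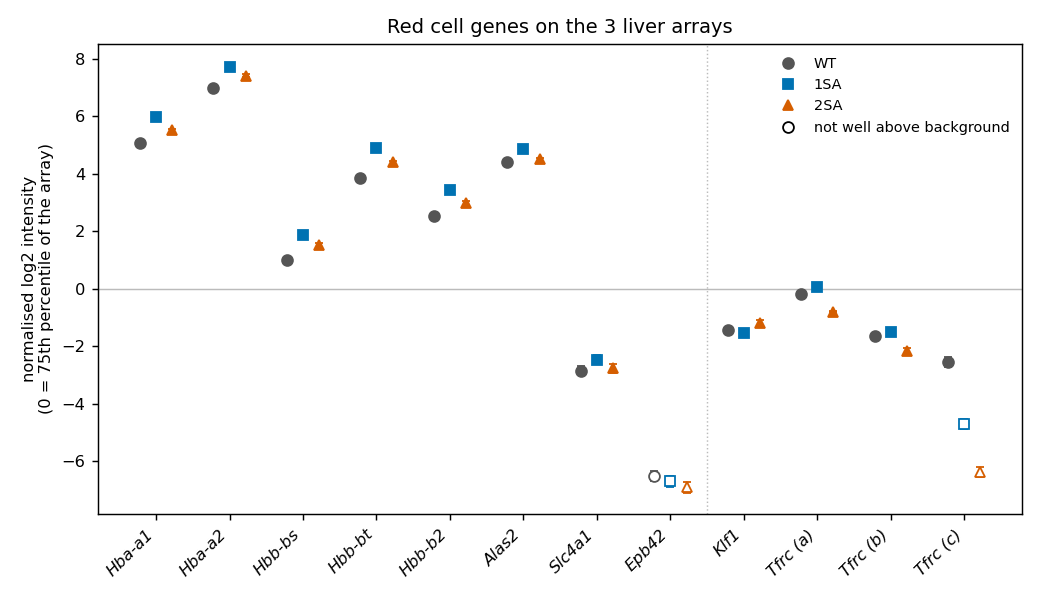
Normalised log2 intensity of each probe of the members and of the other adult globin genes on the WT, 1SA and 2SA arrays, where 0 is the 75th percentile of the array. Points left of the dotted line belong to mature red cell transcripts and points right of it to erythroblast genes, bars are 1 SD of repeated spots at like signal, and open symbols mark values not well above background. Hba-a1 read 5.06 on WT, 5.96 on 1SA and 5.51 on 2SA. Levels of different probes are not comparable.

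Klf1 encodes the erythroid Krüppel-like factor, which activates the adult beta globin gene. Its intensity was 107.3 in the WT liver, 94.3 in the 1SA liver and 141.1 in the 2SA liver. Here 2SA was highest and 1SA lowest, opposite to the order of the mutants for Hba-a1. The difference between 1SA and WT was -0.11 and that between 2SA and WT 0.26, both within 2 SD of the spots (SD 0.13). The step from 1SA to 2SA, 0.37, was beyond them. Neither call held under all settings. With the normexp background correction the step was 0.17, within 2 SD, and the 2SA difference from WT was 0.28 with quantile normalisation and 0.29 with the constants of the series matrix, just beyond 2 SD. The difference of Hba-a1 exceeded that of Klf1 by 1.01 for 1SA and by 0.19 for 2SA, with an SD of 0.15, so only the former was beyond 2 SD.

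Tfrc encodes transferrin receptor 1, the iron uptake receptor that erythroblasts carry in large number and that other dividing cells also use. Its mRNA is known to be stabilised when cells are short of iron. The brightest Tfrc probe (a in the plot of levels) was printed 10 times, so its error could be read from its own spots. In WT its spots ranged from 216.3 to 281.1 with a median of 258.6. In 1SA they ranged from 260.1 to 317.6 with a median of 285.6, and the 9 spots used in 2SA from 169.9 to 201.3 with a median of 180.9. On the normalised scale the spots of 2SA lay below all spots of both other arrays, while those of WT and 1SA overlapped at their edges. Their mean normalised level was -0.19 ± 0.12 in the WT liver, 0.06 ± 0.09 in the 1SA liver and -0.80 ± 0.08 in the 2SA liver (SD over the spots of 1 array, which are technical repeats). Tfrc was thus 0.26 above WT in 1SA, its 2SA difference was -0.61, and the step from 1SA to 2SA was -0.87.

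**Figure D2:**
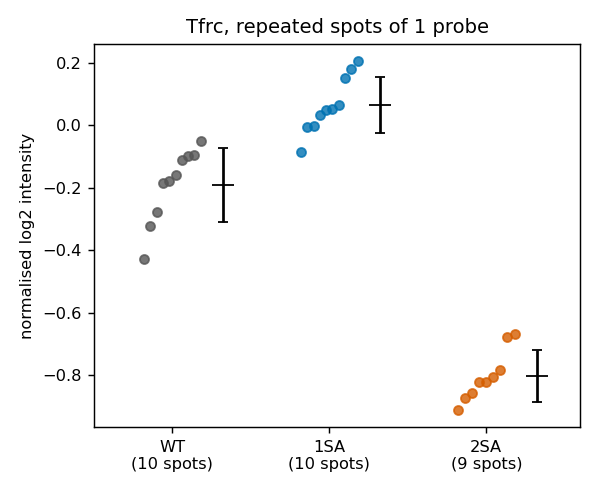
Normalised log2 intensity of the repeated spots of the brightest Tfrc probe on the 3 arrays, 10 of them for WT and for 1SA and 9 for 2SA. Points are spots, sorted within an array, and the dash and bar are their mean and SD. The spots of 2SA, with a mean of -0.80, lay below those of WT and 1SA.

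The other Tfrc probes were read from 1 spot per array. The next brightest (b) read 93.1, 96.8 and 71.6 for WT, 1SA and 2SA, with a difference of 0.13 for 1SA and -0.51 for 2SA, in the same order as the repeated probe. The dimmest (c) disagreed in 1SA. It read 50.004 in WT, where it was well above background, and 10.5 and 3.84 in 1SA and 2SA, where it was not. By that probe Tfrc was at least 4.49-fold lower for 1SA and at least 9.25-fold lower for 2SA.

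Few members passed a threshold of fold. None of the 5 measured members reached 2-fold in any of the 3 comparisons, although Hbb-bt, which may be Hbb-b1 under an older name, did so in 1SA. Of all genes, 0.727% were higher by that much in 1SA than WT and 1.14% lower. For 2SA and WT these shares were 1.12% and 0.543%, and for 2SA and 1SA they were 2.47% and 1.12%. A 1.5-fold threshold was added after the values had been seen. Between 1SA and WT it was passed by Hba-a1, upwards, and by no other member, beside 3.08% of all genes upwards and 4.67% downwards. Between 2SA and WT it was passed by Tfrc alone, downwards, beside 3.79% upwards and 3.02% downwards. Between 2SA and 1SA it was again passed by Tfrc alone, downwards, beside 6.99% upwards and 4.56% downwards.

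The other adult globin genes ranked the livers as Hba-a1 did. Hba-a2 is the second adult alpha globin gene, and the gene table gives the adult beta globin probes to Hbb-bs, Hbb-bt and Hbb-b2. C57BL/6 mice carry Hbb-bs and Hbb-bt as their adult beta globin pair, and Hbb-b1 and Hbb-b2 are the pair of another haplotype. The copies are so alike that a probe named for one can bind the mRNA of another, so these probes are not independent measures. Hba-a2 read 36560 in the WT liver, 58163 in the 1SA liver and 54299 in the 2SA liver. Hbb-bt read 4239, 8116 and 6719 in the same order of livers. Hbb-b2 read 1687, 2967 and 2530, and Hbb-bs read 585.3, 1009.96 and 910.6. For each of these genes WT was lowest and 1SA highest. Over the 5 adult globin genes, Hba-a1 included, the 1SA difference ran from 0.75 to 1.01 and the 2SA difference from 0.44 to 0.53. The largest was that of Hbb-bt, at 2.02-fold for 1SA and 1.44-fold for 2SA. Both mutants were set against the same WT array, so a low WT value raises both differences.

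The sequences before the start sites are shown for Hba-a1 and Alas2, which were higher in 1SA, and for Klf1 and Tfrc, which ranked the livers otherwise, with Hbb-bt as the beta globin gene of largest difference. They are RefSeq sequences of build GRCm38.p6, from 250 bases before to 50 bases after the start of the gene, on the strand of the gene. Hba-a1 lies at chr11:32283422-32283721 (plus strand), Hbb-bt at chr7:103813874-103814173 (minus strand), Alas2 at chrX:150547167-150547466 (plus strand), Klf1 at chr8:84901732-84902031 (plus strand) and the upstream one of the Tfrc start sites at chr16:32608646-32608945 (plus strand). Capitals mark matches to motifs searched on both strands. The motif of GATA factors was searched as AGATAA, and a variant of it that these factors also bind was searched as TGATAA. A motif of the erythroid Krüppel-like factor was searched as CCNCNCCC, and the TATA box as TATAAA. Where matches overlap they form 1 run of capitals.
Hba-a1: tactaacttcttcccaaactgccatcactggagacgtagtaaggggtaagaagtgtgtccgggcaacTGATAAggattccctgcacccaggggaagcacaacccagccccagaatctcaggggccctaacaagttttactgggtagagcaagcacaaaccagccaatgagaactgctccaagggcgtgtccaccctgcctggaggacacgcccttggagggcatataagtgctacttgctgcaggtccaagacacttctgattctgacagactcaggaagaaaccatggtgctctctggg
Hbb-bt: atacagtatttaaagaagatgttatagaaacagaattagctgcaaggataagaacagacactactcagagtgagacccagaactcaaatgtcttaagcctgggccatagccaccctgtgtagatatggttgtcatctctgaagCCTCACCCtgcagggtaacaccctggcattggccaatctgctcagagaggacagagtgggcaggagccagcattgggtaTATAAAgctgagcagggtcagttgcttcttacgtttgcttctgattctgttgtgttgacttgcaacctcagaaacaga
Alas2: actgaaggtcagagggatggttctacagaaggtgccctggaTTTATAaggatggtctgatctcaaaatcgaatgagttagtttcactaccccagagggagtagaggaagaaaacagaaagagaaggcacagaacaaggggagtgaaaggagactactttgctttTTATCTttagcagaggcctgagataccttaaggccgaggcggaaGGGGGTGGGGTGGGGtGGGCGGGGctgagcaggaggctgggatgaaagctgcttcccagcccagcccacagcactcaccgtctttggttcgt
Klf1: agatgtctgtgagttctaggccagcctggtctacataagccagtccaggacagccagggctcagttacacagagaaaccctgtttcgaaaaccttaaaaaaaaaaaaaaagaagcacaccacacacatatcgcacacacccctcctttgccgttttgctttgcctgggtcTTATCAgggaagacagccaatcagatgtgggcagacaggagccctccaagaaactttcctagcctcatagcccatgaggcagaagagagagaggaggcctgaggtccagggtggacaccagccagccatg
Tfrc: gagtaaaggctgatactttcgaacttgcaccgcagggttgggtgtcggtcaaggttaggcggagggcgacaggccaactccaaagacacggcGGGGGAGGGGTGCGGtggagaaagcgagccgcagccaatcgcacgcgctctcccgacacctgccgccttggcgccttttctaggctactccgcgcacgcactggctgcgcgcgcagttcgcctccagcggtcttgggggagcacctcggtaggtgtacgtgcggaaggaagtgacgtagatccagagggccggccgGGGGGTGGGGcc

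A GATA motif stood once in the Hba-a1, Alas2 and Klf1 windows and in neither the Hbb-bt nor the Tfrc window, and 18.6% of the 32851 promoters of the table held one. The Krüppel-like motif matched 4 times in Alas2, 1 time in Hbb-bt, 5 times in the printed Tfrc window and not in Hba-a1 or Klf1. It is loose and was in 49.5% of all promoters. TATAAA was in the Hbb-bt window on the strand of the gene, with its first base at -28 from the start site. In the Alas2 window it was on the opposite strand, at -209. It was in 13.6% of all promoters, and other spellings of a TATA box were not searched. The Hba-a2 window shared an unbroken run of 297 of 300 bases with that of Hba-a1. These matches are letters in a window and no measure of binding.

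The wider erythroid genes were described by lists. Of 12 globin genes listed, 6 were measured on all arrays, and their median difference was 0.88 for 1SA and 0.45 for 2SA. The sixth, the theta globin gene Hbq1b, was dim and read 17.7, 20.6 and 19.9 for WT, 1SA and 2SA. The embryonic globin genes Hbb-bh1, Hbb-bh2 and Hbb-y were well above background on some arrays only, with intensities from 6.41 to 26.8 on their brightest probes. Hba-x, the embryonic alpha-like gene, and Hbq1a were not well above background on any array.

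Haem synthesis stayed nearer to WT than the globins. All 12 listed genes were measured, the median difference was 0.09 for 1SA and -0.09 for 2SA, and none reached 2-fold. For 1SA the highest was Abcb10, a mitochondrial transporter (0.46), and the lowest was Cpox, an enzyme late in the pathway (-0.32). For 2SA the highest was Alas2 and the lowest was Alas1, the form of the first enzyme that hepatocytes use. Alas1 read 104159 in the WT liver, 106554 in the 1SA liver and 66072 in the 2SA liver, a difference of 0.11 for 1SA and -0.79 for 2SA. Its other probe gave -0.89 for 2SA. Slc25a37, the mitochondrial iron importer mitoferrin 1, gave 0.37 for 1SA and -0.53 for 2SA, and ranked the livers as Tfrc did.

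Many membrane and skeleton genes of the red cell were not detected. Of 21 listed genes, 10 were measured on all arrays and 10 were not well above background on any. Among the latter were Epb42, the skeleton genes Sptb, Ank1, Tmod1 and Add2, and the blood group genes Rhag, Rhd and Kel. The median difference of the measured genes was -0.04 for 1SA and -0.12 for 2SA. For 1SA they ran from Xk (-0.26) to Slc4a1 (0.38), and for 2SA from the amino acid transporter Slc43a1 (-0.49) to the adhesion protein Icam4 (0.29).

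Late erythroid and reticulocyte genes varied around WT. Of 17 listed, 13 were measured, with a median of 0.04 for 1SA and -0.01 for 2SA. On the brightest probes the lowest were Mkrn1 for 1SA (-0.22) and Xpo7 for 2SA (-0.14). The highest differences on those probes were 0.73 for 1SA and 0.43 for 2SA. A dimmer Xpo7 probe disagreed, with 0.80 for 1SA and 0.61 for 2SA and a spot SD of 0.24. Trim10 and Cldn13 were not well above background on any array.

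Among erythroid transcription factors and cofactors, 12 of 14 were measured, while Gata1 and Myb were well above background on no array. The median was 0.03 for 1SA and 0.06 for 2SA. Nfe2, a factor of erythroid cells and megakaryocytes, was the one gene of the list that reached 2-fold on its brightest probe. It read 38.2 in the WT liver, 75.3 in the 1SA liver and 78.7 in the 2SA liver, a difference of 1.06 for 1SA and 0.91 for 2SA with a spot SD of 0.18 on a dim probe. The lowest were Cbfa2t3 for 1SA (-0.53) and Gfi1b for 2SA (-0.49). A dimmer Cbfa2t3 probe gave only -0.09 for 1SA. The Gfi1b probe was dim, with a spot SD of 0.25, so its 2SA difference was within 2 SD. The probes of Bcl11a, a repressor of embryonic globin genes, disagreed. The probe used gave 0.09 for 1SA and 0.09 for 2SA, and the other, on another transcript accession, read 86.8, 18.4 and 25.5 for WT, 1SA and 2SA, with differences of -2.16 and -1.90.

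Receptors and signalling genes of erythroblasts gave 7 measured genes of 9, with a median of 0.01 for 1SA and -0.06 for 2SA. Epor, the erythropoietin receptor, was the lowest for 1SA (-0.34), and Stat5a, a factor that acts below it, the highest for 2SA (0.18). Tfrc, also in this list, gave its other extremes. Epo, the hormone itself, read 54.3 in WT, where it was well above background, and 2.89 and 2.73 in 1SA and 2SA, where it was not. It was at least 5.02-fold lower for 1SA and at least 10.05-fold lower for 2SA, from 1 spot per array.

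**Figure D3:**
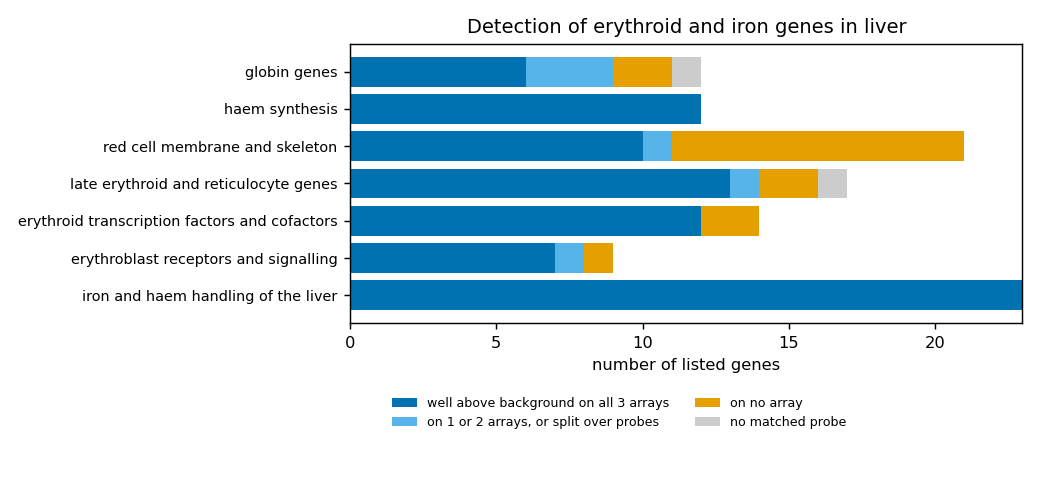
Number of listed genes in each erythroid or iron list by detection: well above background on all 3 arrays, on some, on none, or without a matched probe. Of 21 red cell membrane and skeleton genes 10 were on no array well above background, whereas all 12 haem synthesis genes and all 23 genes of liver iron and haem handling were measured on all 3.

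Iron and haem handling by the liver had all 23 listed genes measured, with a median of 0.03 for 1SA and -0.09 for 2SA and none at 2-fold. The extremes included Smad7 and Id1, targets of the BMP pathway that also drives hepcidin. Smad7 was the highest for 1SA (0.34) and the lowest for 2SA (-0.60), and Id1 was the lowest for 1SA (-0.70) and gave 0.23 for 2SA. Hamp, which encodes hepcidin, the hormone that limits iron export, read 49727 in the WT liver, 33079 in the 1SA liver and 45784 in the 2SA liver, a difference of -0.51 for 1SA and -0.25 for 2SA. Hmox1, the haem oxygenase that breaks haem down, was the highest for 2SA (0.27) and gave -0.40 for 1SA.

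**Figure D4:**
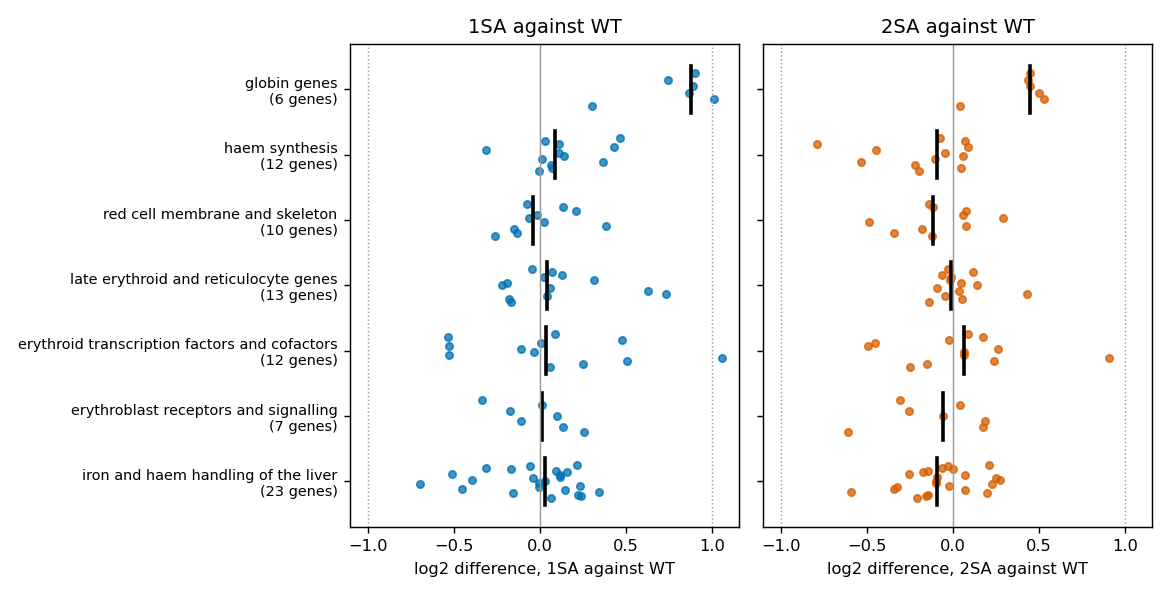
Log2 difference from WT of each measured gene in the globin, haem, membrane, late erythroid, transcription factor, receptor and iron lists, for 1SA (left) and 2SA (right). Points are genes, thick lines are list medians and dotted lines mark 2-fold. The globin list stood at a median of 0.88 for 1SA and 0.45 for 2SA, and the other 6 medians lay between -0.12 and 0.09.

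Markers of other blood cells were read beside the globins, whose summed level, as log2, was 7.50, 8.31 and 7.95 for WT, 1SA and 2SA. Of 13 neutrophil markers 6 were measured, with a median difference of 0.08 for 1SA and 0.02 for 2SA and a summed level of 7.08, 7.05 and 7.07. Ngp, Cxcr2, Mmp8 and Mmp9 were not well above background on any array. Retnlg was the lowest for both mutants (-0.27 and -0.66), Elane the highest for 1SA (0.25) and S100a8 for 2SA (0.44). Of 12 platelet and megakaryocyte markers 7 were measured, with a median of -0.08 for 1SA and -0.13 for 2SA and a summed level of 3.71, 3.34 and 3.60. Gp1ba, Gp5 and Gp6 were well above background nowhere. That list ran from Gp1bb (-0.56) to Treml1 (0.17) for 1SA and from Clec1b (-0.74) to Pf4 (0.96) for 2SA. Of 12 lymphocyte markers 9 were measured, with a median of -0.09 for 1SA and 0.19 for 2SA and a summed level of 5.74, 5.53 and 5.47, and Cd8a was well above background nowhere. Gzma, a granule enzyme of killer lymphocytes, was the lowest for 1SA (-1.16) and the highest for 2SA (0.59), and Cd4 was the lowest for 2SA (-0.44). A summed level adds probes of unequal brightness, so a few bright probes carry it. For neutrophils this was Csf3r, at 6.97, 6.92 and 6.97 for WT, 1SA and 2SA. For lymphocytes it was the brighter Cd4 probe, at 5.31, 5.10 and 4.86, while the other Cd4 probe had intensities of only 23.2, 19.4 and 20.1. These 2 sums thus mostly give 1 probe each and are no reading of cell number.

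Kupffer and erythroid island macrophages engulf spent red cells and surround erythroblasts. All 13 of their markers were measured, and 10 were lower than WT in 1SA and 11 in 2SA. Of all 13626 genes, 6851 were lower than WT in 1SA and 7688 in 2SA. The median of the markers was -0.36 for 1SA and -0.75 for 2SA. The 2SA median was -0.18 with the normexp background correction and -0.16 with a stricter filter on dim probes. Their summed level was 8.02, 7.62 and 7.29 for WT, 1SA and 2SA. Marco was past 2-fold in both mutants (-1.21 and -1.59), Spic, the factor of iron-recycling macrophages, in 1SA (-1.08), and Clec4f in 2SA (-1.56), while Clec4f was the highest for 1SA (0.45) and Maea for 2SA (0.34). The 10 sinusoidal endothelial markers had a median of -0.08 for 1SA and -0.11 for 2SA, with Stab1 (-0.24) and Gpr182 (0.14) as the extremes for 1SA and Clec4g (-0.59) and Lyve1 (0.37) for 2SA. The hepatocyte markers had a median of 0.12 for 1SA and -0.15 for 2SA, with Apoa1 (-0.23) and Tat (0.43) as the extremes for 1SA and Tat (-0.33) as the lowest for 2SA. With quantile normalisation the hepatocyte medians were 0.0042 and -0.02, so neither is called a difference.

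The 10 proliferation genes had a median of 0.69 for 1SA and 0.91 for 2SA. Rrm2, a subunit of the enzyme that makes DNA precursors, was the highest in both mutants (1.27 and 1.55), and Mcm5, Top2a, Cdk1 and Ccna2 also passed 2-fold in 2SA, the liver in which Tfrc was lowest. The part of each of these marker lists in the globin and Tfrc differences was not tested.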

How the data were processed

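Total RNA of mouse liver was hybridised to 1-colour Agilent arrays, 1 per group. The deposited spot intensity came from Agilent Feature Extraction 10.10.1.1, per the file headers, after background subtraction and a correction for spatial trends, and arrays were not scaled to each other. In the series matrix of the authors each intensity was multiplied by 3.02 (WT), 3.08 (1SA) or 2.81 (2SA), a scale of unstated origin. Outlier spots (148 to 182 per array) were left out, no spot was saturated, and repeated spots were averaged as log2 intensity after scaling to the 75th percentile of 59305 non-control spots. Other columns used were 0 or 1 flags. A probe was measured where at least 50% of its spots were well above background (28972 to 30784 of 55681 probes). A bound sets the bright level against the higher of the dim level and the lowest measured level of the dim array.

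Probes were named by RefSeq accession in a GRCm38.p6 table, which matched 26762 probes. The arrays were designed on mm9, so probe positions are not given. A gene was read from its brightest probe measured on all 3 arrays. The members and lists were chosen with earlier results of these data known. Named by rule were all members, list genes at least 2-fold from WT or otherwise the extremes of each list, and the 5 genes nearest to the median differences of the mature red cell transcripts. Slc25a37, Hamp, Epo, Bcl11a, the embryonic globins and the genes named as not well above background were added after their values had been seen, as were further values of listed genes. A few listed genes are not reported here.

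No test was run, and the number of arrays limits the precision. The steps were tested on simulated data. Python 3.11.15, pandas 2.3.3, numpy 2.4.6, matplotlib 3.10.9 and, for normexp on the median spot signals, R 4.3.3 with limma 3.58.1 were used.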

Additional observations from a re-analysis of the deposited data

Results flagged for a closer look

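Tfrc lay on opposite sides of WT in the mutants, at 0.26 for 1SA and -0.61 for 2SA on the log2 scale. Each was beyond 2 SD of a difference between means of 10 spots (SD 0.03, from probes of like signal). Single spots of this probe had an SD of 0.12 in WT and 0.09 in 1SA, and those of WT and 1SA overlapped at their edges. The opposite sides rest on the brightest of 3 probes. The next brightest gave 0.13 for 1SA, with a spot SD of 0.15, and -0.51 for 2SA. The dimmest put both mutants below WT, at least 4.49-fold lower for 1SA and at least 9.25-fold lower for 2SA. The difference between the mutants was not tested, because each was read from 1 array.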

How the results depend on the processing

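No paired analysis was possible because every group is a single array. Quantile scaling, scaling to the array median or by the constants of the series matrix (the last chosen after seeing the data), normexp, the mean over measured probes, outlier spots kept and no filter on dim probes left the median differences of the mature transcripts and of the erythroblast genes within 0.10. The matrix rescaled to its 75th percentile equals the reported values by construction. None of these scalings shifted the median of all genes by 0.1. The stricter filter kept fewer genes: Hba-a1 and Alas2, with a median of 0.67 for 1SA and 0.27 for 2SA, and Tfrc alone of the erythroblast genes, at 0.26 and -0.61, with -0.87 from 1SA to 2SA. Of 129 differences of single members under these alternatives, 121 stayed within the spot SD and 1 had another sign, Slc4a1 for 2SA with normexp (-0.02), and the cause was not tested. Of 378 medians of the wider lists, 27 moved beyond the spot SD, among them those of the Kupffer and hepatocyte markers given above, and 34 had another sign.

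All probes past 2-fold numbered 209, 273, 261, 207, 544 and 367, counting upwards then downwards for 1SA and WT, for 2SA and WT, and for 2SA and 1SA. The same counts were 83, 66, 94, 48, 216 and 111 with normexp, 2034, 2546, 1832, 2779, 2255 and 2649 without a filter, 68, 71, 88, 38, 206 and 105 with the stricter filter and 54, 60, 68, 64, 144 and 91 at 3-fold. Fewer probes can pass the last pair of settings and more enter without a filter. The normexp correction added an offset of 50 to each intensity, and the part of this offset in its lower counts was not tested. Low signal limits Slc4a1, whose spot SD was 0.21, and Epb42, which was not well above background.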

Other observations

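The genes nearest to the median differences of the 3 mature red cell transcripts were Pnma3, Haao, Pon1, Izumo1r and Mfsd4a, by Euclidean distance over both differences from WT among 13141 named genes that are no member. Their distances ran from 0.007 to 0.015. The median of the 3 transcripts was the value of Alas2 in both differences, so these are the neighbours of Alas2. Hba-a1, at 0.90 for 1SA and 0.45 for 2SA, lay away from this point itself. So did the other adult globin genes, at ranks from 5702 (Hba-a2) to 10417 (Hbb-bt).

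The embryonic beta-like globin genes Hbb-bh2 and Hbb-y were well above background in both mutants and not in WT on their brightest probes, each from 1 spot. Hbb-bh2 read 12.7, 26.8 and 17.1 and Hbb-y read 6.41, 14.0 and 13.5, in the order WT, 1SA, 2SA. Hbb-bh2 was at least 2.23-fold higher for 1SA and at least 1.23-fold higher for 2SA, and Hbb-y at least 1.18-fold higher for 1SA. Hbb-bh1, also embryonic and beta-like, went the other way in 1SA. It read 17.2, 11.6 and 19.7, was well above background in WT and 2SA only, and was at least 1.40-fold lower for 1SA. The spot SD of a log2 difference was 0.25 for each of these probes. Of these bounds only that of Hbb-bh2 for 1SA lay beyond 2 SD. The other probes of Hbb-bh2 and Hbb-y were well above background on no array.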
